A study of Mus musculus with 16 samples.

Results

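Hippocampal arrays from 16 female mice were split by whether they carried RNA of the choroid plexus, the vascular fringe in the brain's ventricles that lies against the hippocampus and can be lifted out with it. For each of 8 choroid plexus genes (Aqp1, Cldn2, Kl, Calml4, Otx2, Slc4a5, F5 and Kcnj13) the probe set with the highest mean was centred on its mean over the 16 arrays, and the 8 centred values were averaged per array. Arrays with an average below -1 were called choroid-free and those above 0 were called carrying. This placed 6 arrays in the choroid-free class and 10 in the carrying class, with 0 of the 16 in between. All animals were of the 3xTg-AD line, which models Alzheimer's disease through transgenes for mutant human APP and mutant human tau, driven in neurons by the Thy1.2 promoter. Both diet groups carried these alleles, and no group without them was analysed here. The 8 control animals (numbered 1 to 8) were on a control diet and the 8 PIO animals (9 to 16) on a diet with 84 ppm pioglitazone, an agonist of the nuclear receptor PPARgamma, given for about 14 weeks from 10 months of age at a dose near 18 mg per kg body weight per day. All were 14 months old, and each array held total hippocampal RNA of 1 separately numbered animal. The choroid-free arrays were those of control animals 1, 4, 5 and 7 and PIO animals 9 and 13.

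The choroid plexus makes most of the cerebrospinal fluid. Its single layer of cuboidal epithelium, joined by tight junctions, moves ions, water, folate, glucose and hormones between blood and fluid, and secretes the thyroid hormone carrier transthyretin (Ttr). Below the epithelium lies a stroma of fibroblasts continuous with the leptomeninges, macrophages that present antigen on MHC class II, and capillaries with fenestrated walls. In a bulk extract, fewer choroid cells and less RNA per choroid cell cannot be told apart.

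Promoter sequences are shown for epithelial and macrophage genes because these differed from each other in some animals, as described further on. Otx2 is the homeodomain factor on which formation of the choroid plexus depends, and Ace and Car14 are epithelial genes whose windows hold the core motif of OTX factors. H2-Aa and H2-Eb1 encode MHC class II chains of macrophages such as those of the stroma. Each run is the 250 bases before the RefSeq start in GRCm38.p6, read 5′ to 3′ on the gene's own strand. Capitals mark TAATCC or its reverse complement in the epithelial genes and CTGATTGG, the Y box of MHC class II promoters to which NF-Y binds, in the macrophage genes.
Otx2 (chr14:48665110-48665359, minus strand): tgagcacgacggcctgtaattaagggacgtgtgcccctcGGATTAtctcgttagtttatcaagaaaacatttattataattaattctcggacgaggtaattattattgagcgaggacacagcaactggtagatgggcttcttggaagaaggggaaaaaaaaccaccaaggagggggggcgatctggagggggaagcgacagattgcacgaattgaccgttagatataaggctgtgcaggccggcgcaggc
Ace (chr11:105967698-105967947, plus strand): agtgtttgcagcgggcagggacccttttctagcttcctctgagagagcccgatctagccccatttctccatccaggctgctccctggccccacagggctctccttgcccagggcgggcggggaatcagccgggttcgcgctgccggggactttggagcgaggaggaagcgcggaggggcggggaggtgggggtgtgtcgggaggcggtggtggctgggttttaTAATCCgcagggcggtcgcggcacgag
Car14 (chr3:95904686-95904935, minus strand): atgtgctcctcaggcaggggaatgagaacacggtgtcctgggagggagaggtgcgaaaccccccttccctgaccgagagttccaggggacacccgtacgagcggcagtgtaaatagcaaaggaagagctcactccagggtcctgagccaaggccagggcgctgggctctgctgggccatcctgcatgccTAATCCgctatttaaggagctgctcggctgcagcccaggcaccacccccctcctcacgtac
H2-Aa (chr17:34287824-34288073, minus strand): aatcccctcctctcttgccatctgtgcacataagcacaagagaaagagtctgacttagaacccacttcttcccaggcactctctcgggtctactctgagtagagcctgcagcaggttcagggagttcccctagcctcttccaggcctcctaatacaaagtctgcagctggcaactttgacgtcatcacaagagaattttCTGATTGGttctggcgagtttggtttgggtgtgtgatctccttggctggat
H2-Eb1 (chr17:34305617-34305866, plus strand): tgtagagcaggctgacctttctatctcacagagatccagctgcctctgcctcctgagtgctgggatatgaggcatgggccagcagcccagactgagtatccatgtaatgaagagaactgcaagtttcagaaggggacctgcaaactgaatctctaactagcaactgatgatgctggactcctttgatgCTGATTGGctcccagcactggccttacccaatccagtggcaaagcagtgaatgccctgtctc
TAATCC, sought on both strands, stood in 6.25% of the 32851 promoters of the table and in 1 of the 11 promoters of the 8 genes, that of Otx2. It stood in 3 of the 55 promoters (5.45%) matched for 37 of the 54 epithelial list genes, namely those of Ace, Car14 and Rbm47, a share near that of all promoters. CTGATTGG stood in 3.83% of all promoters, in 3 of the 55 epithelial ones and in 2 of the 14 matched for 12 of the 17 macrophage genes, where it lay 51 bases before the start of H2-Aa and 62 before that of H2-Eb1. These letters describe the windows and show no binding.

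The members of each class were chosen by the measured log2 levels of these 8 genes. All 8 were low on the choroid-free arrays and high on the carrying ones, and they are given as a description with no test. Values are log2 levels as deposited. The average of the 8 was -3.14 to -2.38 (median -2.97) on the 6 choroid-free arrays and 0.36 to 2.63 (median 1.91) on the 10 carrying arrays. The arrays nearest to the limits were PIO animal 9 at -2.38 and control animal 3 at 0.36. Kcnj13, an inward rectifier potassium channel of the apical membrane, was at 9.85 to 11.66 (median 10.93) on carrying arrays and at 3.18 to 3.80 on 5 choroid-free arrays, but at 6.39 in control animal 1. Aqp1, the apical water channel, was at 5.13 to 8.16 (median 7.76) against 1.60 to 2.38 (median 1.97). Cldn2, which forms cation-selective tight junctions, was at 6.93 to 9.18 (median 8.50) against 2.85 to 3.05 (median 2.90). Otx2 was at 6.43 to 8.83 (median 7.93) against 3.10 to 3.30 on 5 choroid-free arrays and 4.89 in PIO animal 9. Calml4, a calmodulin-like gene, was at 7.96 to 9.83 (median 9.15) against 3.35 to 4.23 on the same 5 arrays and 6.97 in PIO animal 9. Kl, which encodes the anti-ageing protein klotho, was at 9.37 to 11.55 (median 10.59) against 7.35 to 7.82 (median 7.53). The sodium bicarbonate cotransporter gene Slc4a5 was at 5.30 to 8.34 against 2.50 to 3.26, and the coagulation factor gene F5 at 7.07 to 9.65 against 5.63 to 6.12. No gene of the 8 overlapped between the classes.

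**Figure D1:**
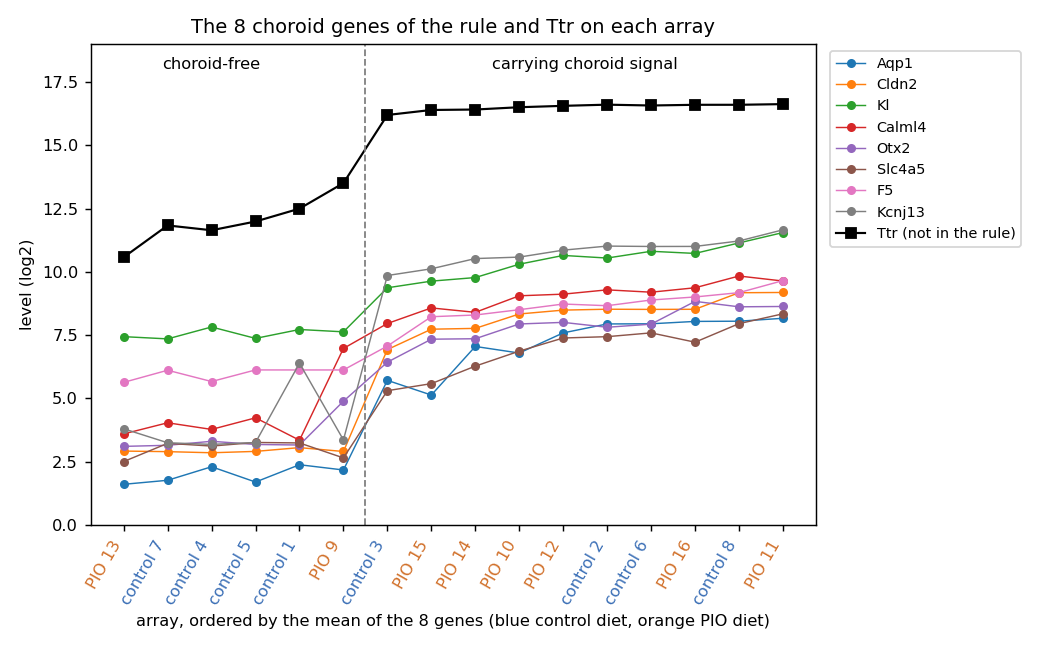
Log2 level (y axis) of the 8 choroid genes that set the classes and of Ttr on each of the 16 arrays (x axis), ordered by the mean of the 8 genes, with array names in blue for control and orange for PIO animals. Ttr sits between 10.57 and 13.50 on the 6 choroid-free arrays and between 16.20 and 16.62 on the 10 carrying arrays, and Calml4 and Otx2 stand up in PIO animal 9 and Kcnj13 in control animal 1.

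Ttr was not used to set the classes and separated them without overlap. It was at 16.20 to 16.62 (median 16.56) on carrying arrays, at the upper end of a table whose highest value is 16.62, and at 10.57 to 13.50 (median 11.91) on choroid-free arrays. PIO animal 9 was the highest choroid-free array and PIO animal 13, at 10.57, the lowest. Choroid-free is a relative name: Ttr, Kl, F5, Igf2 and Igfbp2 all had levels above the filter level of 3.58 on every choroid-free array, while Aqp1 and Cldn2 were below it on all 6. The same limits applied to the mean of Ttr, Folr1, Clic6, Sostdc1 and Kcne2 placed all 16 arrays in the same class.

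Both classes held animals of both diets. Choroid-free arrays were 4 of 8 control animals (50%) and 2 of 8 PIO animals (25%), a difference that Fisher's exact test did not call (two-sided p = 0.608). Of 3 codes in the array descriptions, of unstated meaning, the largest held 7 carrying and 4 choroid-free arrays, another 1 and 2, and the smallest 2 and 0. Arrays numbered 1 to 6 held 3 of each class, and those numbered 10 or above 7 carrying and 3 choroid-free ones. Array medians were 5.64 to 5.70 on choroid-free and 5.66 to 5.76 on carrying arrays. The difference between 3′ and 5′ probe sets, a sign of RNA quality, overlapped between classes for Gapdh (-0.19 to -0.14 choroid-free, -0.22 to -0.11 carrying) and for Actb (0.79 to 0.93 and 0.74 to 0.88). Striatal markers were high in PIO animals 14 and 15 (list means of 0.67 and 0.83 relative to all arrays) and thalamic markers in PIO animal 16 (1.00), all 3 of them carrying arrays. With the striatal list mean as a further term 264 genes were called, 259 higher and 5 lower, of which 219 were among the 234 reported next, and Serping1, Klf2, Rdh10, Islr and Ogn lost their calls (limma adjusted p 0.0518 to 0.0598). The part of thalamic RNA was not tested with a term of its own. Without these 3 animals, picked once their values were known, 218 genes were called.

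Across the other genes the carrying arrays differed from the choroid-free ones almost wholly by higher levels. Of 12258 genes tested with diet as a term, 232 (1.89%) were higher on carrying arrays and 2 (0.0163%) lower at an adjusted p under 0.05 (limma with Benjamini-Hochberg adjustment). In 101 genes (0.824%) every carrying array lay above every choroid-free array, and in 3 (0.0245%) every carrying array lay below. At an unadjusted p under 0.05 there were 807 higher and 310 lower genes. The median difference over all genes was -0.0074 log2 units, with a median SE of 0.067. Control animals alone gave 85 genes and PIO animals alone 30, of which 80 and 30 were among the 234. A test of whether the class difference itself differed between the diets called 0 genes in limma (smallest adjusted p 1.00, 333 at an unadjusted p under 0.05), with a median SE of 0.14 for that difference. It called 2 genes when PIO animal 9 or PIO animal 13, the only choroid-free PIO animals, was left out, which leaves 1 array in that group, assumed to vary like the others. With the label code as a block 126 genes were called, and within the largest code alone 92, of which 124 and 90 were among the 234.

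**Figure D2:**
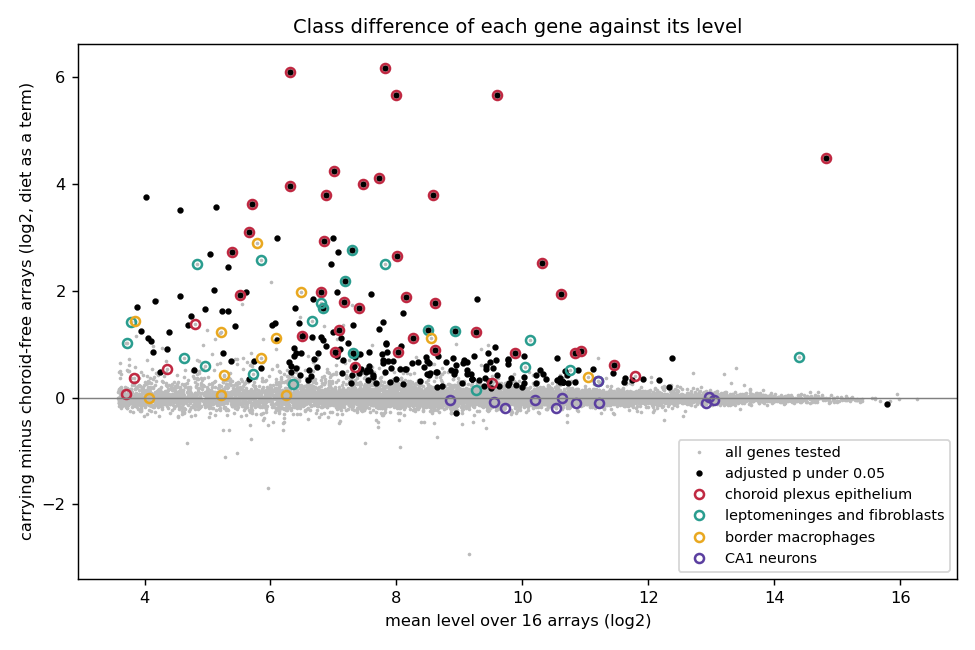
Difference between carrying and choroid-free arrays (y axis, log2, diet as a term) of each of 12258 genes against its mean level over 16 arrays (x axis, log2). Black points passed an adjusted p of 0.05 and rings mark 4 cell type lists, with epithelial genes reaching 6.17 at the top and CA1 genes between -0.20 and 0.31. Dcn, at 0.31, is on both the CA1 and the leptomeningeal list.

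The known genes of the choroid epithelium carried the largest differences, from Folr1 at 6.17 log2 units downward. The list held 54 genes, of which 48 were matched to a probe set of their own and 42 lay above the filter. All 42 were higher on carrying arrays, with a median difference of 1.84, against -0.0074 and 5590 of 12258 higher over all genes tested. These genes report the tissue that set the classes, so their differences carry no p here, although 35 passed the threshold beside the 1.89% of all genes. Of the 42, 3 had a choroid-free mean below the filter level and passed through the carrying arrays, and over all 48 matched genes the median difference of class means was 1.55, with 46 higher. The 6 genes below the filter differed by -0.034 to 0.11.

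Among transporters and channels, Folr1, the folate receptor that carries folate across this epithelium, was at 8.77 to 10.88 (median 10.38) on carrying arrays and 2.76 to 5.05 (median 4.29) on choroid-free arrays, a 71.9-fold difference (SE 0.40 on the log2 scale). Kcne2, a potassium channel beta subunit, was at 7.20 to 9.61 (median 8.73) against 2.28 to 2.83 (median 2.37). All its choroid-free values lay below the filter level, so its fitted difference of 6.11 (SE 0.28) is better read as at least 5.04, the carrying mean less that level. Neither gene overlapped between the classes. Clic6, a chloride channel protein gene, differed by 5.67 (SE 0.52), with a choroid-free range of 2.73 to 7.06 under a carrying range of 8.90 to 11.03. With probe sets of shared sequence left out, Clic6 differed by 4.21 (SE 0.41). Slc13a4, a sulfate transporter gene, differed by 3.99 (SE 0.60) and did overlap, because control animal 1 stood at 8.16 and PIO animal 10 at 7.77. The anion exchanger gene Slc4a2 differed by 1.77 (SE 0.20). Trpm3, a cation channel gene that hippocampal cells also express, differed by 0.88 (SE 0.13). Htr2c, the serotonin 2C receptor gene, which neurons express as well, had the smallest difference of the 35 past the threshold, 0.61 (SE 0.11), and overlapped between the classes.

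Among secreted proteins and enzymes, Ecrg4, which encodes a secreted peptide precursor, differed by 5.67 (SE 0.35) and Ttr by 4.49 (SE 0.30), and all 4 Ttr probe sets were higher on carrying arrays. With probe sets of shared sequence left out, Ecrg4 differed by 4.84 (SE 0.31) and Ttr by 5.17 (SE 0.27). Lbp, the lipopolysaccharide-binding protein gene, differed by 4.11 (SE 0.34), and Sostdc1, an antagonist of BMP and Wnt signalling, by 3.80 (SE 0.27). Igf2, a growth factor that the choroid plexus releases into the fluid, was at 10.42 to 12.02 (median 11.33) against 8.04 to 10.32 (median 8.53). Its highest choroid-free array, that of control animal 1, lay only just below its lowest carrying array. Igfbp2, which binds that factor, was at 10.86 to 11.90 (median 11.42) against 9.00 to 10.24 (median 9.23). Rdh5, a retinol dehydrogenase gene, differed by 2.93 (SE 0.31), and Ace, the angiotensin-converting enzyme gene, by 1.79 (SE 0.26). Structural members included the collagen genes Col8a1 at 4.24 (SE 0.26) and Col8a2 at 3.80 (SE 0.23) and the keratin gene Krt18 at 3.09 (SE 0.34). Steap1, a metalloreductase family gene, differed by 3.95 (SE 0.36), and Cox8b, a subunit of cytochrome c oxidase, by 3.63 (SE 0.31).

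Outside the epithelial list, 197 of the 232 genes remained, and 71 of them did not overlap between the classes, beside 0.824% of all genes. The 197 were picked by the class test, so a larger share among them follows from that choice. Of the 197, 10 had a choroid-free mean below the filter level of 3.58 and passed the filter through the carrying arrays, and 5 were below it on every choroid-free array. Their median difference was 0.65 log2 units: 51 genes differed by 1 log2 unit or more and 68 by less than 0.5. Prr32, a proline-rich protein gene, was at 4.36 to 6.50 (median 5.48) on carrying arrays and 1.43 to 2.17 (median 1.59) on choroid-free arrays. Myo7a, an unconventional myosin, was at 4.76 to 7.42 (median 6.67) against 1.99 to 3.57 (median 3.15). Tmprss11a, a membrane serine protease gene, was at 3.69 to 7.22 (median 6.28) against 2.26 to 2.44 (median 2.37). These 3 genes are among the 5, and their carrying means lay above the filter level by 1.87, 2.89 and 2.31 log2 units, which bounds their differences from below. Slc2a12, a glucose transporter gene, differed by 2.99 (SE 0.25), and Sgms2, a sphingomyelin synthase gene, by 2.98 (SE 0.24). A gene off the list may still report the tissue that set the classes, so a p given for it is no independent support. Lepr, the leptin receptor gene, was at 5.08 to 7.16 (median 5.92) against 2.50 to 4.80 (median 3.32), a difference of 2.68 (SE 0.39, limma adjusted p = 7.87e-04). Its highest choroid-free array was control animal 1. Gpx8, a glutathione peroxidase family gene, differed by 2.73 (SE 0.26), and Cgnl1, which encodes the junction protein paracingulin, by 2.51 (SE 0.21), with 2 of 3 probe sets higher. The phospholipase gene Pla2g5 differed by 2.02 (SE 0.19) and Cdkn1c, which encodes an inhibitor of cyclin-dependent kinases, by 1.97 (SE 0.18), both without overlap.

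A few more of the 197 are named after their values were seen, and no list or count stands behind that choice. Hfe, the iron regulator mutated in haemochromatosis, differed by 1.63 (SE 0.19), and Bmp6, a signal to the iron system, by 1.59 (SE 0.22). The copper-exporting ATPase gene Atp7a was at 7.90 to 8.65 (median 8.27) against 6.91 to 7.68 (median 7.18), without overlap. Ocln, which encodes the tight junction protein occludin, differed by 0.65 (SE 0.11), and the reduced folate carrier gene Slc19a1 by 0.53 (SE 0.11). Slc6a20a, a proline transporter gene, differed by 1.84 (SE 0.43, limma adjusted p = 0.0367). Slc6a20a lost its call in 12 of 16 fits that each left out 1 animal (highest adjusted p 0.161, without PIO animal 9), and Slc19a1 in 1, also without PIO animal 9 (adjusted p = 0.0769).

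On the lower side 2 genes passed, both by little, and this count depended on the scaling: it was 6 after quantile normalization and 17 with all arrays set to a common median. Snap25, a neuronal SNARE protein of synaptic vesicle release, was at 15.70 to 15.77 (median 15.75) on carrying arrays and 15.82 to 15.93 (median 15.86) on choroid-free arrays, a difference of -0.13 (SE 0.029, limma adjusted p = 0.0375). The classes did not overlap, on a spread of all 16 arrays from 15.70 to 15.93. Glt8d2, a glycosyltransferase gene, was at 8.64 to 9.01 against 9.02 to 9.23, a difference of -0.28 (SE 0.063, limma adjusted p = 0.0256). On another probe set, used when those of shared sequence were left out, Glt8d2 was at -0.15 (limma adjusted p = 0.788). Snap25 lost its call in 13 of 16 fits without 1 animal (highest adjusted p 0.131) and Glt8d2 in 6 (highest 0.104), in both cases highest without PIO animal 13. The next lower genes did not pass with the values as deposited. Nmbr, a neuromedin B receptor, was at -0.51 (SE 0.14), the amino acid transporter gene Slc36a1 at -0.25 (SE 0.065), Parm1 at -0.23 (SE 0.064) and Serpini1, which encodes neuroserpin, at -0.21 (SE 0.060). Pcnx2 also lay lower on all carrying arrays, at -0.15 (SE 0.049). With a common median Slc36a1, Parm1, Serpini1 and Pcnx2 did pass (limma adjusted p 0.0213 to 0.0464).

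Leptomeningeal and fibroblast genes were higher on carrying arrays and overlapped between the classes. These arrays cannot tell the stroma of the choroid plexus from leptomeninges taken with the hippocampus. Of 23 measured genes of leptomeninges and fibroblasts, all 23 were higher and 6 passed the threshold, with a median difference of 1.09. Over all genes 1.89% were called higher and 5590 of 12258 were higher. Free of overlap were 0 of the 23, beside 0.824% of all genes, a count near that share. Of the 23, 3 had a choroid-free mean below the filter level. Pcolce, a procollagen processing enhancer, was at 6.85 to 9.12 (median 8.49) on carrying and 4.18 to 7.77 (median 5.12) on choroid-free arrays, a difference of 2.76 (SE 0.47, limma adjusted p = 0.00354). The highest choroid-free array was control animal 1 and the lowest carrying array PIO animal 10. Bgn, the proteoglycan biglycan, differed by 1.67 (SE 0.26) and Lum, the proteoglycan lumican, by 0.84 (SE 0.19). Serping1, the complement C1 inhibitor gene, differed by 2.19 (SE 0.52), Islr by 1.26 (SE 0.30) and the proteoglycan gene Ogn by 1.25 (SE 0.30). Those calls depended on single animals: Serping1 and Ogn lost theirs in 13 of 16 fits without 1 animal, Islr in 12 and Lum in 8, with highest adjusted p of 0.174, 0.159, 0.186 and 0.0883, the first 3 without PIO animal 9 and the last without PIO animal 13. Col1a2, a chain of type I collagen, was at 1.43 (SE 0.47) and Dcn, the proteoglycan decorin, at 0.31 (SE 0.17), and neither passed. Without control animal 1 and PIO animal 10, picked once their values were known, 325 genes were called, 324 higher and 1 lower, among them 16 of the 23. These animals were the ones that ran against the class difference in these genes, so the larger counts follow from the choice and lend no support.

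The macrophage list showed large differences of which 0 passed in limma's test. Of 12 measured genes 11 were higher, with a median of 0.92, beside 5590 of 12258 higher and 1.89% called higher over all genes. Over all 17 genes of the list, with no filter, 13 were higher and the median difference of class means was 0.36. H2-Aa, an MHC class II alpha chain, was at 2.95 to 8.93 (median 6.91) on carrying and 2.82 to 6.65 (median 3.60) on choroid-free arrays, a difference of 2.90 (SE 0.75, limma adjusted p = 0.0654). Control animal 1 was at 6.65 among choroid-free arrays whose others reached 4.05, and PIO animal 10 at 2.95 among carrying arrays whose others began at 6.58. Cd74, the invariant chain of MHC class II, repeated this, with control animal 1 at 6.89 and PIO animal 10 at 4.75, and its difference was 1.98 (SE 0.52). H2-Eb1 was at 1.44 (SE 0.42) and Mrc1, the mannose receptor gene of border macrophages, at 1.12 (SE 0.45). Maf, a transcription factor gene of macrophages and other cells, was at 0.38 (SE 0.097, limma adjusted p = 0.0611). Cd163, Lyve1, Ms4a7, Cbr2 and Clec4n lay below the filter.

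Epithelial genes stood apart from leptomeningeal and macrophage genes in these 2 animals, chosen after the values were seen. The epithelial list mean, centred over the 16 arrays, was -1.29 in control animal 1 and 0.64 in PIO animal 10, while the leptomeningeal mean was 0.59 and -0.95 and the macrophage mean 0.32 and -0.90. Control animal 1 lay above PIO animal 10 in 23 of 23 leptomeningeal genes, 11 of 12 macrophage genes and 2 of 42 epithelial genes, beside 7125 of all 12258 genes. On the other choroid-free arrays the leptomeningeal mean was -1.25 to -0.56, and on the other carrying arrays -0.40 to 1.28, with control animal 8 the lowest. With the leptomeningeal mean as a further term, also chosen after the values were seen, 69 genes were called in place of 234, of which 25 were on the epithelial list and 44 off it. The leptomeningeal genes make up that term, so nothing can be read from them in this fit.

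**Figure D3:**
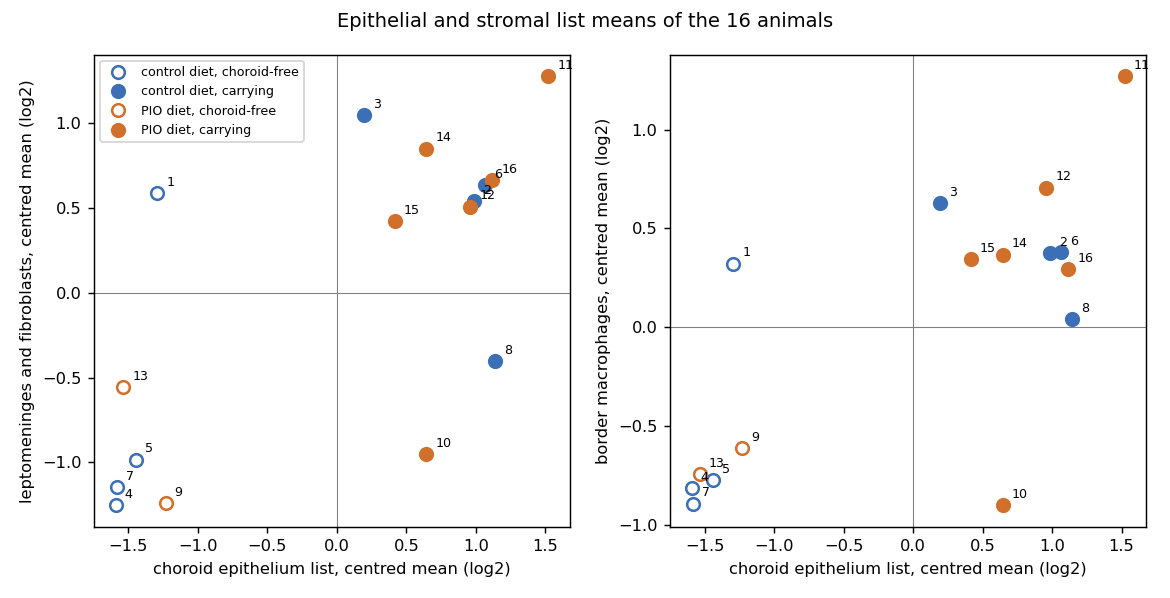
Mean of the leptomeningeal list (left, y axis) and of the macrophage list (right, y axis) against the mean of the epithelial list (x axes), all log2 and centred over the 16 arrays, with each point 1 animal labelled by its number. Control animal 1 is the open point at -1.29 and 0.59 on the left, and PIO animal 10 the filled point at 0.64 and -0.95.

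Lists of the ventricle wall and vessels had lower medians. Of 25 measured genes of ependyma and motile cilia 23 were higher, 5 passed and the median was 0.31, beside 1.89% called higher over all genes. Of the 25, 1 had a choroid-free mean below the filter level. Over all 35 matched genes of this list, with no filter, 27 were higher and the median difference of class means was 0.20. Pifo, a gene of the primary and motile cilium, was at 4.27 to 5.96 (median 5.21) against 3.68 to 4.06 (median 3.83), without overlap. The cilium genes Tekt1, Cfap126 and Rsph1 differed by 1.23 (SE 0.22), 1.22 (SE 0.24) and 0.84 (SE 0.16). Cfap126 lost its call without PIO animal 13 (limma adjusted p = 0.0627). Mia, which encodes a small secreted protein, differed by 2.44 (SE 0.38) and had a choroid-free high of 5.31 above its carrying low of 5.26. Foxj1, the master regulator of motile cilia, was at 0.61 (SE 0.22) and did not pass. Of 19 measured genes of brain endothelium 2 passed, beside the same 1.89%, with a median of 0.17 that was 0.012 without PIO animal 9 and at most 0.22 without any other single animal. The fenestrated endothelium list, the capillary type of the choroid plexus, had 2 of 4 measured genes higher, 0 called and a median of 0.0075, and the list of pericytes and smooth muscle had 6 of 9 higher, 0 called and a median of 0.071. Slco1c1, a thyroid hormone transporter of brain capillaries and choroid epithelium, was at 11.05 to 11.70 (median 11.28) against 10.58 to 10.93 (median 10.82), a difference of 0.54 (SE 0.089, limma adjusted p = 0.00285). Slc2a1, the glucose transporter of both cell types, differed by 0.36 (SE 0.082, limma adjusted p = 0.0338), without overlap in either gene, but lost its call in 6 of 16 fits without 1 animal (highest adjusted p 0.167, without PIO animal 9). Bsg, the partner of monocarboxylate transporters, was at 0.27 (SE 0.068) and did not pass. PIO animals 9 and 10, 1 of each class, had the lowest endothelial list means (-0.56 and -0.53). All 6 matched blood genes lay below the filter.

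Genes of the hippocampal tissue proper had medians near 0 in the same comparison. With the values as deposited no member passed in limma's test, in either direction, among 23 microglial genes (median 0.051, 15 higher), 20 astrocyte genes (-0.0022, 10 higher), 23 myelin genes (0.0020, 13 higher), 17 dentate granule genes (0.011, 10 higher), 17 CA2 and CA3 genes (0.018, 9 higher) or 15 interneuron genes (-0.012, 6 higher). The CA1 list had 2 of 12 higher and a median of -0.069, and the list of neocortex and subiculum 2 of 14 higher and a median of -0.13, with 0 called in both. Dcn, described above, is on both the CA1 and the leptomeningeal list and is 1 of the 2 higher CA1 genes. Over all genes the median was -0.0074 and 5590 of 12258 were higher, with 1.89% called higher and 0.0163% lower. Counts of 0 in lists of this size lie near those shares. In control and in PIO animals alone the medians were 0.15 and -0.099 (microglial), 0.079 and -0.036 (astrocyte), 0.099 and -0.075 (myelin) and 0.072 and -0.019 (dentate granule). The sign held for CA2 and CA3 (0.034 and 0.025), interneurons (-0.035 and -0.030), CA1 (-0.045 and -0.068) and neocortex and subiculum (-0.17 and -0.015). Whether a list differed between the diets was not tested. Wfs1, a gene of CA1 pyramidal cells, was at -0.094 (SE 0.11) and Mpped1, another, at -0.19 (SE 0.063). Gfap, the intermediate filament gene of astrocytes, was at 0.092 (SE 0.20), Cx3cr1, the fractalkine receptor gene of microglia, at -0.037 (SE 0.10), and Mbp, the myelin basic protein gene, at -0.062 (SE 0.042). After quantile normalization Mbp passed at -0.15 (limma adjusted p = 0.0407), and with a common median Mpped1 passed at -0.24 (limma adjusted p = 0.0408). Gjb6, a connexin of astrocytes and leptomeninges, was at 0.30 (SE 0.11). The complement gene C1qc was at 0.18 (SE 0.13). Ppp1r1b, a signalling gene of striatal neurons, was at 0.60 (SE 0.16) and Prkcd, a kinase gene of thalamus, at 0.44 (SE 0.32), and PIO animal 16 was the highest for Prkcd at 10.55.

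**Figure D4:**
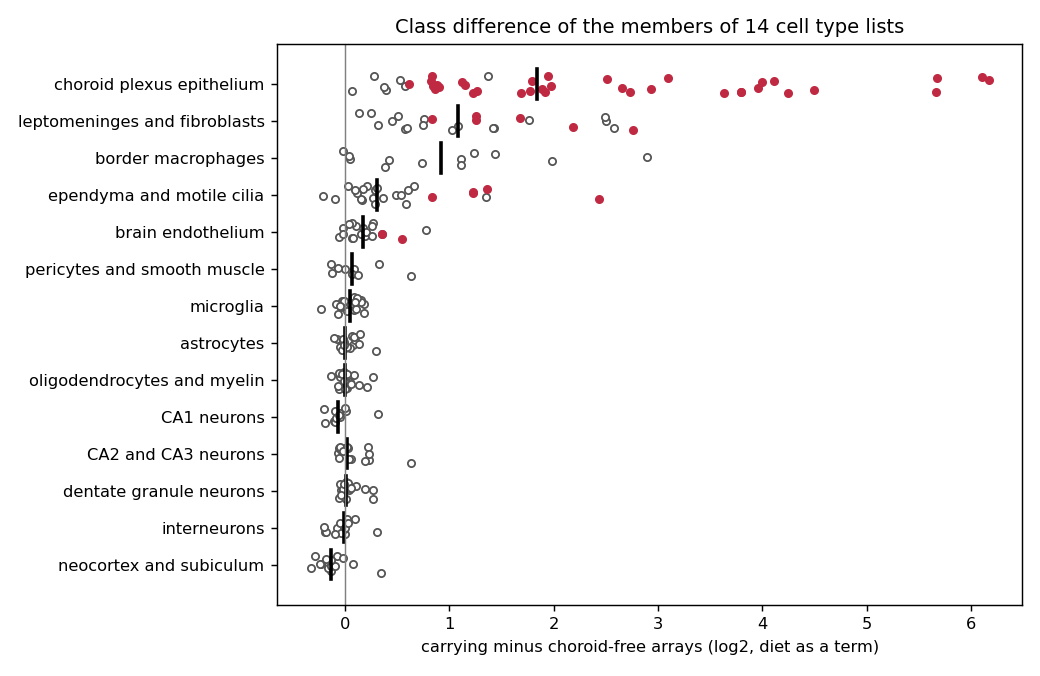
Difference between carrying and choroid-free arrays (x axis, log2, diet as a term) of each measured member of 14 cell type lists (rows), with filled points past an adjusted p of 0.05 and a black bar at each list's median. Medians run from 1.84 for the epithelial list and 1.09 for the leptomeningeal list to -0.13 for neocortex and subiculum.

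Lists of pathways held few genes that passed, and the counts in this paragraph stand beside 1.89% called higher over all genes. Some are pathways that a PPARgamma agonist or its partner receptors are known to act on. The lists of immediate early genes and of MHC class I and interferon are given beside them and not as such pathways. Of 21 PPAR target genes 18 were higher, with a median of 0.13, and 2 passed. Cpt1a, which admits long-chain fatty acids to mitochondria, was at 8.24 to 9.00 (median 8.60) on carrying and 8.06 to 8.20 (median 8.09) on choroid-free arrays, a difference of 0.58 (SE 0.078, limma adjusted p = 3.94e-04) without overlap. Its PIO minus control difference was -0.0067 without the class term and -0.15 with it. Txnip, an inhibitor of thioredoxin, differed by 0.51 (SE 0.12, limma adjusted p = 0.0439), and Acadvl, an enzyme of fatty acid oxidation, was at 0.21 (SE 0.055) and did not pass. Of 16 genes of LXR and cholesterol efflux 2 passed: Pltp, the phospholipid transfer protein gene, by 0.74 (SE 0.14, limma adjusted p = 0.00852), and Smpdl3a, a phosphodiesterase gene, by 0.29 (SE 0.065). Abca1, the cholesterol exporter, was at 0.17 (SE 0.20). Elovl7, which elongates fatty acids, was the 1 of 21 genes of fatty acid synthesis to pass, by 0.85 (SE 0.20), and Klf2, an endothelial transcription factor, the 1 of 30 immediate early genes, by 0.81 (SE 0.20), shares near that of all genes. Of 13 genes of retinoid and thyroid hormone transport 4 passed, of which Ttr, Rdh5 and Slco1c1 are described above and Rdh10, a retinol dehydrogenase gene, differed by 0.20 (SE 0.050). Of the 13, 3 are also on the epithelial list, Ttr and Rdh5 among them. Those report the tissue that set the classes, so this count is no result about transport. In fits without 1 animal, Txnip and Rdh10 lost their calls in 13 of 16, Klf2 in 14, Elovl7 in 10 and Smpdl3a in 7, with highest adjusted p of 0.189, 0.189, 0.189, 0.161 and 0.108, without PIO animal 9 or 13. Of 16 genes of MHC class I and interferon 13 were higher, with a median of 0.24 and 0 called. Ifitm3, an interferon-induced membrane protein, was at 0.73 (SE 0.20) and B2m, the light chain of MHC class I, at 0.22 (SE 0.072).

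Within the 10 carrying arrays the amount of choroid signal still varied, and a further fit took the mean of the 8 genes as a continuous term beside diet. The slope, in log2 units per unit of that mean, passed in 23 genes (0.188%), all positive, and 16 of them were on the epithelial list. That mean is made of the genes that set the classes, so the slopes of epithelial genes are a description and carry no p. Folr1 had a slope of 0.95 (SE 0.041) and Ecrg4 one of 0.89 (SE 0.048), so both moved nearly unit for unit with the 8 genes, while Ttr, near the top of the scale, had 0.18. Off the list the 7 were Prr32, Tmprss11a, Slc2a12, Cgnl1, Mia, Inmt and Hemk1. Genes off the list may report the same tissue, so the slopes of these 7 are a description too. Tmprss11a had the steepest of them, 1.48 (SE 0.19), and Slc2a12 had 0.71 (SE 0.047). Prr32 and Tmprss11a were below the filter level on every choroid-free array and passed the filter through the carrying arrays. Inmt, a methyltransferase gene, had 0.85 (SE 0.10) although it had not passed between the classes (difference 1.16, limma adjusted p = 0.0658). Hemk1, a methyltransferase family gene, had 0.30 (SE 0.044). The median slope was 0.51 over the 42 epithelial genes, with 41 positive, 0.15 over the ciliary list, with 23 of 25 positive, -0.075 over the leptomeningeal list, with 8 of 23 positive, and -0.019 over all genes, with 4856 of 12258 positive. Myo7a, large between the classes, had a slope of -0.32 (SE 0.32).

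The class term moved the diet differences of the epithelial genes. Because 8 genes of the same tissue set the class, this move was largely fixed in advance. Whether the diet changed choroid RNA cannot be told from it. With 2 PIO and 4 control arrays choroid-free, the 42 epithelial genes had a median PIO minus control difference of 0.56 log2 units without the class term, with 40 of 42 higher in PIO animals. With the class as a term the median was 0.025, with 24 of 42 higher, and the median SE of these genes went from 0.48 to 0.23. Among the 10 carrying arrays alone the median was -0.0093. Over all genes the median was 0.0045 without and 0.0040 with the class. Genes that differed by 1 log2 unit or more between the diets numbered 20 without the class term, of which 19 were higher with PIO and 11 were on the epithelial list. With the term they numbered 8, of which 0 were on that list. Clic6 went from 1.79 to 0.37, Kcne2 from 1.73 to 0.20, Ecrg4 from 1.63 to 0.22, Folr1 from 1.44 to -0.10 and Ttr from 1.16 to 0.032. Krt18 kept the most, from 1.43 to 0.66 (SE 0.33). Limma called 0 genes for diet in all 3 fits: the smallest adjusted p was 0.453 without the class, 0.328 with it and 0.839 among carrying arrays, with 860, 746 and 681 genes at an unadjusted p under 0.05. Without PIO animal 10 the fit with the class called 1 gene. The median SE of a diet difference over all genes was 0.064 without the class and 0.065 with it.

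**Figure D5:**
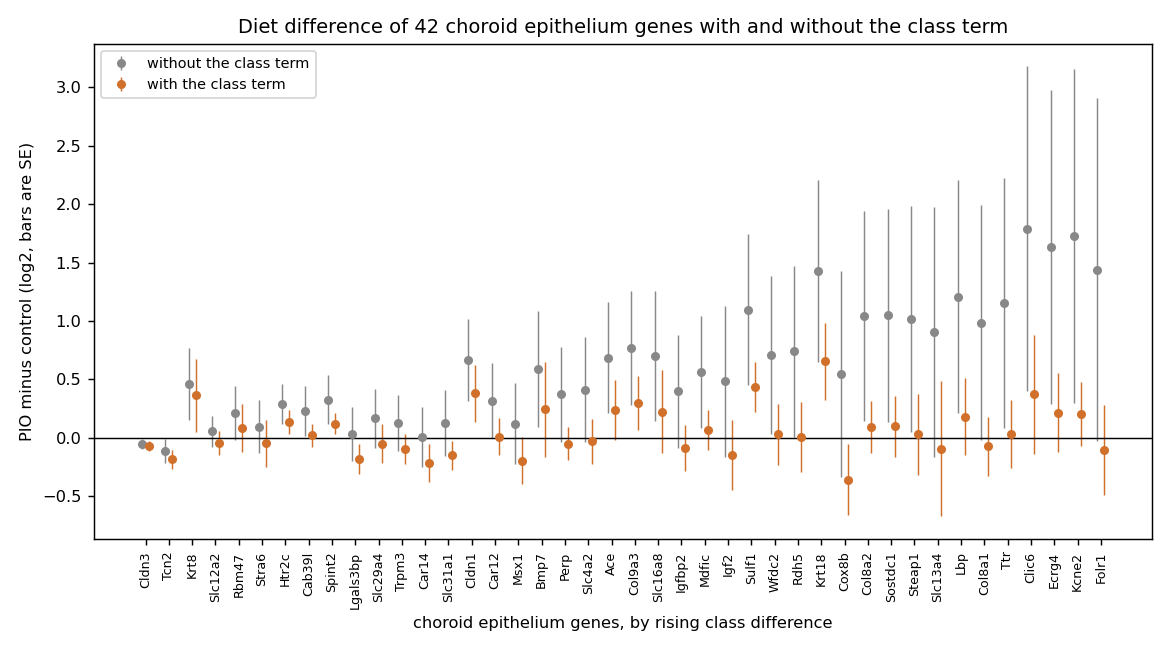
PIO minus control difference (y axis, log2, bars are SE) of the 42 epithelial genes, ordered along the x axis by their class difference, fitted without (grey) and with (orange) the class as a term. The grey points climb to 1.79 at Clic6, and the orange points lie around a median of 0.025. That shift was largely fixed in advance, because genes of the same tissue set the class.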

How the data were processed

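Expression in hippocampal RNA of 16 mice was measured on Affymetrix mouse expression arrays, 1 array per animal. The deposited table holds log2 values made by the authors, from 0.33 to 16.6, with array medians of 5.64 to 5.76. The submitters' processing notes name MAS5, GCRMA and R 2.7.1, with no role for each. The table had 0 columns of other samples.

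Of 45101 probe sets, 64 controls were left out, and 34945 paired with 1 gene symbol in the platform annotation, 932 with several and 9160 with none. Genes were represented by the probe set with the highest mean, if above the 40th percentile (3.58), which kept 12258 beside the 8 genes of the rule. Each was fitted with diet and class as terms in limma 3.58.1 (R 4.3.3, lmFit and eBayes), with Benjamini-Hochberg adjustment over all genes and a threshold of 0.05. The fitting code was tested on simulated data. P-values measure the spread between animals, and precision is limited by how many arrays there were.

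The members, the 31 gene lists and the tests were chosen with earlier results of these data known, so a pattern seen there gains no independent support here. Named genes were the 8 genes, the 12 epithelial genes with the largest difference and a fixed set. From every list the 4 members (at most) of smallest p were added. Outside the epithelial list the 12 higher genes with the largest difference past the threshold and the 6 higher with the smallest p were added. On the lower side only 2 genes passed, so the 12 lower genes with the smallest p were taken. Of these, the text names those its results turn on, and those named after their values were seen are marked. Alternatives covered the filter, probe set choice, scaling, label code, array number, class definition, further terms and leaving out each animal. An alternative class score was planned on 6 genes, of which 1 was not matched. One allele of the line is not reported here.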

Additional observations from a re-analysis of the deposited data

Results flagged for a closer look

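An array was singled out where its gap to the nearest array of its class was large for the range of that class, by Dixon's critical value. This held in 25 of 224 groups of arrays. Chance gives about 5% for a single group chosen without regard to its values. The groups share the same arrays, and some are of genes that set the classes, such as Kcnj13, Cldn2, Calml4 and Otx2. Others, such as Chl1 and Cntn6, are of genes noticed after their values were seen. The count of 25 is therefore a description and cannot be judged against that share.

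Control animal 1 stood apart 8 times among the choroid-free arrays, always upward. Its level was 6.39 for Kcnj13 (next array 3.80), 3.05 for Cldn2 (next 2.92), 8.27 for Serping1 (next 6.10), 7.49 for Lum (next 6.86), 7.23 for Col1a2 (next 5.64), 6.65 for H2-Aa (next 4.05) and 10.02 for Ifitm3 (next 9.23). Its macrophage list mean was 0.32 beside a next of -0.61. Of the 8 genes that set the classes, Kcnj13 and Cldn2 are the ones in which it stood apart, by very different amounts.

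PIO animal 9 was high among choroid-free arrays for Calml4 at 6.97 (next 4.23), Otx2 at 4.89 (next 3.30) and Prr32 at 2.17 (next 1.60), and low for the brain endothelium list mean at -0.56 (next -0.11). PIO animal 10 was low among carrying arrays for H2-Aa at 2.95 (next 6.58), Cd74 at 4.75 (next 7.00), Slc13a4 at 7.77 (next 8.77) and the brain endothelium list mean at -0.53 (next -0.093). PIO animal 16 was high for the thalamic list mean at 1.00 (next 0.18) and for Prkcd at 10.55 (next 9.25).

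Control animal 3, the carrying array with the least choroid signal, was low for Krt18 at 4.94 (next 6.42) and Htr2c at 11.17 (next 11.59), and high for Slc36a1 at 9.38 (next 9.23). Mpped1 was low in control animal 2 at 10.26 (next 10.40), and Ocln in control animal 5 at 7.00 (next 7.37). Chl1 was at 2.56 in control animal 5 (next 12.05), and Cntn6 was at 7.51 in PIO animal 15 (next 5.56).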

How the results depend on the processing

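The count of 234 genes moved by over 1.5 times under 7 alternatives: 141 with the filter at the 60th percentile (fewer genes tested), 126 with the label code as a block, 92 in the largest code alone, 85 in control animals alone, 30 in PIO animals alone, 69 with the leptomeningeal mean as a term and 23 for the slope among carrying arrays. Other settings gave 178 (common median, 161 higher and 17 lower) to 325 genes. Leaving out 1 animal gave 159 (without PIO animal 9) to 285 (without PIO animal 10), 0 to 2 genes for the class difference by diet, 0 to 1 for diet with the class, 0 for diet among carrying arrays, and an exact p of 0.282 to 0.608 for class by diet. Of 59 named genes past the threshold, 44 kept it in all 16 such fits. Off the epithelial list 24 kept it and 15 lost it in 1 or more fits. The others report the tissue that set the classes, so their part of the 44 lends no support. With the label code as a block 15 of the 59 lost their call, and within the largest code alone 23 did.

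Some signs turned. With the label code as a block Gfap was at -0.025 and Wfs1 at 0.018. Cx3cr1 was at 0.024 with array weights, 0.0087 in control animals alone, and 0.00020 to 0.0094 without control animal 4 (0.0090), control animal 6 or PIO animal 13. Slopes among carrying arrays opposed the class difference in Myo7a (-0.32), Klf2 (-0.26), Mrc1 (-0.13), Ppp1r1b (-0.097), Slc2a1 (-0.075), Ogn (-0.075), Maf (-0.070), Txnip (-0.064), Gjb6 (-0.054), Slc6a20a (-0.054), Col1a2 (-0.053), Abca1 (-0.038), Cntn6 (0.058), Mbp (0.061), Nmbr (0.24), Cntn3 (1.15) and Chl1 (2.36). With the leptomeningeal term Mrc1 was at -0.36, Col1a2 at -0.19, Dcn at -0.085 and Abca1 at -0.0028. The cause of these changes was not tested.

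No paired analysis was possible because control animals are numbered 1 to 8 and PIO animals 9 to 16, with no shared number. With 6 choroid-free arrays, 2 of them PIO, differences within a diet rest on few animals, and levels near the low end of the table are little above background.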

Other observations

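A pattern outside the choroid classes, noticed after the values were seen, lay in 3 genes of neuronal cell adhesion molecules, Chl1, Cntn3 and Cntn6, which neighbour each other on 1 chromosome in the RefSeq table. Chl1 was at 2.44 to 2.75 in control animals 2, 3 and 5 and PIO animals 14 and 16, and at 11.8 to 13.0 in the other 11 animals. In the same 5 animals Cntn3 was at 2.20 to 2.27, against 6.49 to 9.23 in the rest, and Cntn6 at 3.57 to 3.70, against 5.08 to 7.83. Of these 5 arrays 1 was choroid-free and 4 carried choroid plexus. The class difference was -2.94 (SE 2.25) for Chl1, -1.69 (SE 1.31) for Cntn3 and -1.12 (SE 0.64) for Cntn6, and 0 of the 3 passed the threshold in limma.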
